A study of Mus musculus with 9 samples.

Results

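Brain tissue of mice given celastrol after a middle cerebral artery occlusion was compared with brain tissue of sham-operated mice. The celastrol group differs from sham in both the occlusion and the drug, and no sham group received the drug. Effects of the injury and of the drug therefore cannot be told apart in this contrast. The comparison used 6 of the 9 libraries of the series, 3 of celastrol-treated occlusion and 3 of sham, chosen by their labels. Genes entered it when FPKM (fragments per kilobase of transcript, scaled to library size) reached 0.5 in at least 3 of the 9 libraries, which kept 16982 of 55385 genes. At the edge of that filter, 586 genes reached the minimum in exactly 3 libraries and were tested, and 778 reached it in exactly 2 and were not.

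All mice were male C57BL/6, 8 to 10 weeks old, with no genetic change named. Sham mice had the neck surgery without the occlusion. In the group with transient middle cerebral artery occlusion (tMCAO), a coated filament blocked the right middle cerebral artery for 90 min and was then withdrawn to let blood return. The celastrol group had the same occlusion and received 4.5 mg/kg of the drug into the peritoneum as the filament came out. The sources used here do not give the time from reperfusion to sampling, the number of animals per library or any vehicle. The p-values therefore measure the spread between these libraries, which may be technical.

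Blocking the middle cerebral artery starves parts of the cortex and striatum of oxygen and glucose, and the return of blood brings leukocytes and reactive oxygen into the damaged tissue. Astrocytes and microglia in and around the lesion take on reactive states, endothelial cells display adhesion molecules for blood leukocytes, and neurons lose synaptic transcripts or die. Celastrol is a triterpenoid from the thunder god vine that is studied as an anti-inflammatory compound and as an inducer of heat shock proteins.

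The libraries held 60392960 to 75158625 estimated counts, and mitochondrial genes took 5.80% to 7.39% of them. A sham and a celastrol library stood apart from their groups. The first principal component (31.0% of the variance) placed sham replicates 1, 2 and 3 at −25.8, −58.7 and −54.05, the tMCAO libraries between 16.99 and 58.1, and celastrol replicates 1 and 3 at 44.1 and 20.3. Celastrol replicate 2 lay at −23.2, next to sham replicate 1. In log2 CPM sham replicate 1 correlated at 0.9664 and 0.9656 with sham replicates 2 and 3 and at 0.968 with tMCAO replicate 2. Main results are given with and without celastrol replicate 2 below. Without sham replicate 1, edgeR called 3 genes higher, Fcgr4 not among them, and the groups did not overlap in 2492 genes higher and 2257 lower. Among the lists described below, leaving it out moved the median of the neutrophil list from 4.08 to 4.68, of endothelial activation from 1.77 to 2.35 and of striatal projection neurons from −1.69 to −2.07. Brain genes were high in every library: the myelin gene Mobp lay between 753 and 2007 CPM (counts scaled to a common library size by edgeR's TMM factors), and the astrocyte glutamate transporter Slc1a2 between 1869 and 3385 CPM. Markers of striatal projection neurons differed between libraries of 1 group, with a median log2 difference from the sham mean of −1.13 in sham replicate 1 and 1.34 in sham replicate 3. These libraries are of bulk tissue, so fewer cells of a type and less RNA per cell cannot be told apart.

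Innate immune genes led the comparison with sham, and a single gene passed the test over all genes. Fcgr4, which encodes an activating Fc receptor of myeloid cells, rose in celastrol-treated occlusion. With edgeR's quasi-likelihood F test, adjusted by Benjamini and Hochberg's method, it was 1 of 16982 genes called higher (0.00589%), and 0 were called lower (0%). At an unadjusted p under 0.05, edgeR found 967 genes higher (5.69%) and 478 lower (2.81%). DESeq2 at an adjusted p under 0.05 called 314 genes higher (1.85%) and 66 lower (0.389%). In 1340 genes (7.89%) the celastrol libraries all lay above the sham libraries, and in 941 (5.54%) they all lay below. Between 15706 and 16526 genes reached the FPKM minimum in a celastrol library and between 15625 and 15874 in a sham library.

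Fcgr4 lay at 0.167, 0.220 and 0.208 CPM in the sham libraries and at 5.03, 2.74 and 4.31 CPM in celastrol replicates 1, 2 and 3. The groups were far apart, and replicate 2 was the lowest of the celastrol libraries. The means were 0.198 ± 0.0273 CPM in sham and 4.03 ± 1.17 CPM with celastrol (SD, n = 3 each), from 37 and 864 counts in all. On the log2 scale celastrol exceeded sham by 4.34 ± 0.39 (SE; edgeR adjusted p 0.0323). In untreated tMCAO it lay at 2.01, 2.63 and 3.93 CPM, and celastrol minus tMCAO was 0.50 ± 0.33 (SE) on the log2 scale, with an edgeR adjusted p of 0.976. The call depended on single libraries and on the method. EdgeR's adjusted p was 0.0559, 0.196 and 0.22 without sham replicate 1, 2 or 3, 0.0673 without tMCAO replicate 2, and 0.159 and 0.104 without celastrol replicate 1 or 3. Without celastrol replicate 2 it was 0.0253. With all libraries, limma gave Fcgr4 an adjusted p of 0.0515 on log2(FPKM + 0.5) and 0.0955 on log2(FPKM + 1), with Lcn2 the one gene called in each. Over all alternatives the adjusted p of Fcgr4 ranged from 5.6e-19 (DESeq2) to 0.22.

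**Figure D1:**
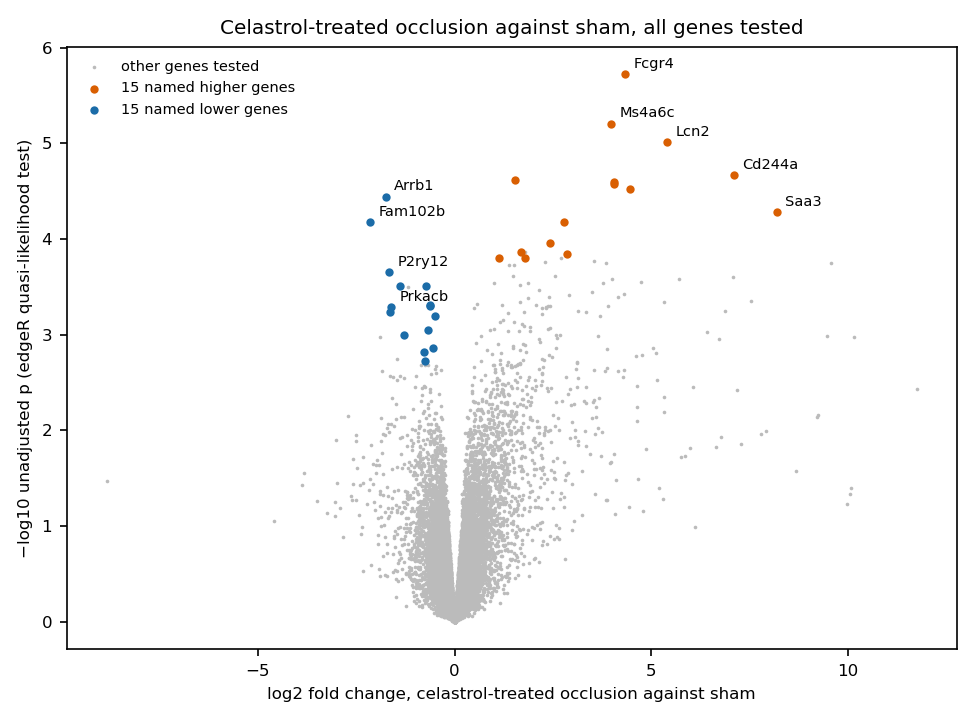
Log2 fold change of celastrol-treated occlusion against sham (horizontal) and −log10 unadjusted p of edgeR's quasi-likelihood test (vertical) for the 16982 genes tested, each point 1 gene. The 15 named higher genes (orange) and 15 named lower genes (blue) lead the 2 sides, and Fcgr4 at 4.34 is the one gene past the adjusted threshold.

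Fcgr4 (ENSMUSG00000059089) lies on chr1:171018920-171029761, plus strand (mm10), and its neighbour Fcgr3, another activating Fc receptor gene that lay higher with celastrol, on chr1:171051174-171064935, minus strand. Their upstream sequences are shown because both hold a match to the NF-kappaB consensus at position −152 from the RefSeq start. The gene Hivep1, whose zinc finger protein is known to bind kappaB-like sites, was among the lower genes and holds a match at −30. Each window is the 250 bases before the RefSeq start (GRCm38.p6), with the match in capitals. The windows are chr1:171018676-171018925 (plus strand) for Fcgr4, chr1:171059404-171059653 (minus strand) for Fcgr3, and chr13:42051771-42052020 (plus strand) for Hivep1. The RefSeq start of Fcgr3 lies 5532 bases inside the gene as deposited.
Fcgr4: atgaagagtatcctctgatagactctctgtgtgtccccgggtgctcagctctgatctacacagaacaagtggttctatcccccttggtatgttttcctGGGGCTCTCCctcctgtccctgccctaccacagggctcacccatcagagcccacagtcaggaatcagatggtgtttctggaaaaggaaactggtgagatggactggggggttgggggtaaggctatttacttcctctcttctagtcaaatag
Fcgr3: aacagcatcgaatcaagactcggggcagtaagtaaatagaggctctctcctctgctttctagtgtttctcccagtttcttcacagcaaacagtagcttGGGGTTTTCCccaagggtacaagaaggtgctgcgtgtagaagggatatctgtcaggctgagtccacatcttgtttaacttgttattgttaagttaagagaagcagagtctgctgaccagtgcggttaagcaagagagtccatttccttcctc
Hivep1: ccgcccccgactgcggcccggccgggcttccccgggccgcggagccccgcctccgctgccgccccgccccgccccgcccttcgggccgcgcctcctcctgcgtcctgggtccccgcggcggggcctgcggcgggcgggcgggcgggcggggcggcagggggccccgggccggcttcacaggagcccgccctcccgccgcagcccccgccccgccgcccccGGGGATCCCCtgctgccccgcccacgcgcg

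RefSeq windows matched 28 of the 30 genes named below. A match to the NF-kappaB consensus on either strand stood in 2 of 14 higher genes (Fcgr4 and Fcgr3), in 3 of 14 lower genes (Ephb1, Hivep2 and Hivep1), and in 1281 of all 32851 windows (3.9%). The AP-1 motif TGANTCA stood in 1 higher gene (Cd244a) and in 6.75% of all windows, and the STAT motif TTCNNNGAA in 1 higher gene (Ncf1), 1 lower gene (Fip1l1) and 7.02% of all windows. The antioxidant response core TGACNNNGC stood in 1 higher and 3 lower genes (P2ry12, Acbd5 and Nanos1) and in 10.2% of all windows. The heat shock element was in none of the 28 windows and in 0.466% of all windows. Motifs were searched on both strands, and a site may match more than 1 of them.

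The other 14 of the 15 leading higher genes include receptors and membrane proteins of myeloid cells, secreted proteins, and genes of other kinds. None of the 14 passed edgeR's threshold (adjusted p 0.0529 to 0.128), while DESeq2 called all of them. Their 3 celastrol libraries all lay above their 3 sham libraries, which is part of how they were chosen. In all 15 leading higher genes the untreated tMCAO libraries also lay above the same sham libraries without overlap (12.4% of all genes tested). Ms4a6c, a membrane protein gene of macrophages, lay at 0.782, 0.625 and 0.467 CPM in sham and at 12.3, 7.41 and 9.86 CPM with celastrol. Its log2 fold change was 3.97 ± 0.42 (SE; edgeR adjusted p 0.0529). In untreated tMCAO it lay at 3.28, 3.35 and 7.29 CPM, below every celastrol library, and edgeR's adjusted p for celastrol against tMCAO was 0.976. The family members Ms4a6d and Ms4a6b had log2 fold changes of 4.06 ± 0.51 and 2.79 ± 0.40 (SE). The 3 Ms4a6 genes are close copies, and 53.1% of the exonic bases of Ms4a6c are shared with BE692007 on the other strand (2.42 ± 0.37), so how counts were split among them is uncertain.

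Lcn2, the gene of lipocalin 2, a siderophore-binding protein of reactive astrocytes, endothelium and neutrophils, lay at 4.51, 1.86 and 2.21 CPM in sham. With celastrol it lay at 158, 111 and 94.5 CPM. All 3 celastrol libraries were at least an order of magnitude above the highest sham library, and replicate 2 was not the lowest. The log2 fold change was 5.40 ± 0.60 (SE; edgeR adjusted p 0.0552), and the untreated tMCAO libraries lay at 108, 31.6 and 37.9 CPM. Saa3, an acute-phase serum amyloid protein, lay at 0.0558, 0 and 0.0692 CPM in sham and at 24.8, 4.01 and 9.77 CPM with celastrol (8.19 ± 1.13, SE). Its sham libraries held 8 counts in all, so the size of that fold change depends on the fit.

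C5ar1, the receptor for the complement fragment C5a, lay at 0.544, 0.422 and 0.277 CPM in sham and at 11.2, 3.69 and 5.97 CPM with celastrol (4.05 ± 0.51, SE). Cd300lf, an inhibitory receptor of myeloid cells, lay at 0.363, 0.101 and 0.0692 CPM in sham and at 4.93, 3.15 and 4.11 CPM with celastrol (4.47 ± 0.57). The low-affinity Fc receptor gene Fcgr3 lay at 13.5, 10.4 and 11.6 CPM in sham and at 42.3, 39.8 and 32.4 CPM with celastrol (1.69 ± 0.26). In these 3 genes no celastrol library approached a sham library. The remaining members were Cd244a, a signalling receptor of leukocytes (7.10 ± 0.87), Ch25h, the cholesterol 25-hydroxylase (2.85 ± 0.45), Ifitm2, an antiviral membrane protein (1.80 ± 0.29), Tma16, a ribosome biogenesis factor (1.53 ± 0.19), and Ncf1, a subunit of the phagocyte oxidase (1.14 ± 0.18). Without strand information the counts of Ch25h (11.5% of exonic bases shared with Gm26902) and Ncf1 (11.1% shared with Gtf2ird2) are uncertain.

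**Figure D2:**
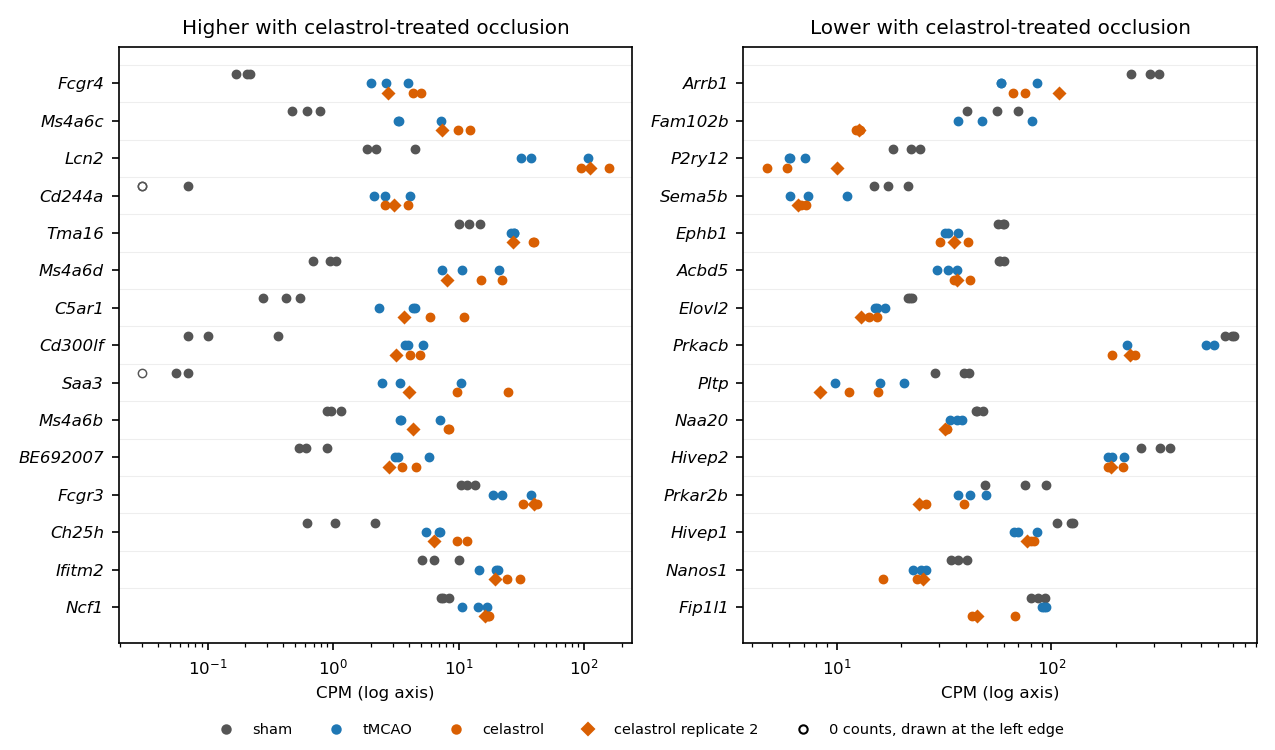
CPM on a log axis for the 15 leading higher genes (left) and 15 leading lower genes (right), each point 1 library of sham (grey), tMCAO (blue) or celastrol (orange, replicate 2 as a diamond); open points at the left edge are libraries with 0 counts. The celastrol points of Fcgr4 lie between 2.74 and 5.03 CPM and its sham points between 0.167 and 0.220 CPM, and the celastrol points of Fam102b lie together below both other groups.

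None of the 15 leading lower genes passed edgeR's threshold (adjusted p 0.0678 to 0.251), while DESeq2 called all 15 (adjusted p 2.32e-09 to 0.00844). They include signalling genes of neurons and a marker of resting microglia. In 12 of the 15 the untreated tMCAO libraries also lay below the same sham libraries without overlap (11.1% of all genes tested). Arrb1, which encodes beta-arrestin 1, an adaptor that ends signalling of G protein-coupled receptors, lay at 235, 289 and 316 CPM in sham. With celastrol it lay at 75.4, 108 and 66.1 CPM, and with tMCAO at 85.6, 58.2 and 58.2 CPM. Both occluded groups lay at less than the lowest sham value without overlap, and the celastrol library nearest to sham was replicate 2. The log2 fold change was −1.75 ± 0.23 (SE; edgeR adjusted p 0.0678, or 0.0274 without celastrol replicate 2, with a range over alternatives of 2.32e-09 to 0.376). P2ry12, the ADP receptor of resting microglia, lay at 18.2, 24.4 and 22.2 CPM in sham and at 5.85, 10.0 and 4.71 CPM with celastrol (−1.66 ± 0.28), and 0.4% of its exonic bases are shared with Med12l.

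In a few of the lower genes the celastrol means were also below those of untreated tMCAO, with no adjusted p under the threshold in edgeR. Fam102b, a gene of little-known function, lay at 12.9, 12.7 and 12.2 CPM with celastrol, against 40.4, 55.9 and 70.2 CPM in sham and 47.4, 36.8 and 81.5 CPM with tMCAO. The celastrol libraries agreed closely with each other and lay below all 6 others. Its log2 fold change was −2.14 ± 0.30 (SE) against sham (edgeR adjusted p 0.0944) and −2.13 ± 0.30 against tMCAO (unadjusted p 6.82e-05, adjusted 0.976, edgeR). Prkacb, a catalytic subunit of the cyclic AMP-dependent protein kinase, lay at 693, 707 and 642 CPM in sham and at 192, 233 and 246 CPM with celastrol. In tMCAO it lay at 226, 574 and 528 CPM, so only tMCAO replicate 1 reached the celastrol range. Its log2 fold change was −1.60 ± 0.30 against sham (SE; edgeR adjusted p 0.146, 0.0121 without tMCAO replicate 1, and 5.12e-05 to 0.561 over all alternatives) and −0.98 ± 0.30 against tMCAO (unadjusted p 0.00941, adjusted 0.976, edgeR). A regulatory subunit of the same kinase, Prkar2b, was also among the 15 (−1.29 ± 0.27).

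Fip1l1, a factor of messenger RNA polyadenylation, lay at 67.4, 45.1 and 42.8 CPM with celastrol, against 79.9 to 93.4 CPM in sham and 90.1 to 94.1 CPM with tMCAO. Its log2 fold change was −0.74 ± 0.17 (SE) against sham and −0.84 ± 0.17 against tMCAO, with an edgeR adjusted p of 0.976 for the latter, and 3.6% of its exonic bases are shared with Lnx1. The other members were the axon guidance genes Sema5b (−1.39 ± 0.24) and Ephb1 (−0.73 ± 0.13), the fatty acid elongase Elovl2 (−0.64 ± 0.12), the peroxisomal protein Acbd5 (−0.63 ± 0.12), the phospholipid transfer protein Pltp (−1.63 ± 0.31), the acetyltransferase subunit Naa20 (−0.51 ± 0.10), the zinc finger genes Hivep2 (−0.68 ± 0.14) and Hivep1 (−0.56 ± 0.12), and the RNA-binding translational repressor Nanos1 (−0.77 ± 0.17). Pltp shares 19.3% of its exonic bases with Ctsa.

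Among 1264 long non-coding RNA genes tested, edgeR found 48 higher (3.8%) and 22 lower (1.74%) at an unadjusted p under 0.05, smaller shares than the 5.69% and 2.81% of all genes, and 0 passed after adjustment. By smallest p the leading higher transcripts were BE692007, Gm42031 (1.79 ± 0.28, SE), Ifi30 (1.88 ± 0.32), which the table types as long non-coding though its symbol names a lysosomal thiol reductase, and Gm11827 (2.36 ± 0.44). Gm11827 lay at 0.748, 1.28 and 1.44 CPM with celastrol and at 0.135 to 0.541 CPM in the 6 other libraries. The leading lower ones were C030029H02Rik (−1.90 ± 0.40), A230001M10Rik (−1.64 ± 0.40), Gm15721 (−0.98 ± 0.24) and Gm27202 (−1.37 ± 0.39).

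Gene lists for cell types, stress and inflammation were then read gene by gene, with the same counts over all genes beside them (7.89% of all genes above sham without overlap, 5.54% below, and a median log2 fold change of 0.00291). For counts without celastrol replicate 2 the shares over all genes are 16.8% above and 14.8% below, and for tMCAO against sham 12.4% and 11.1%. Apart from Fcgr4 no gene passed edgeR's adjusted threshold, so the values that follow describe these libraries. Genes near 0 in sham could enter only through the occluded groups, which favours differences in the higher direction: 527 of the 16982 genes were under the FPKM minimum in all 3 sham libraries.

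Neutrophil markers lay higher with celastrol by more than those of any other list with at least 5 members tested. Of 16 markers 8 were tested, and 5 of these were under the FPKM minimum in all sham libraries. In 7 of the 8 the groups did not overlap, the median log2 fold change was 4.08 (4.42 without celastrol replicate 2, and 3.03 for tMCAO against the same sham libraries), and DESeq2 called 6 higher. S100a9, a calcium-binding protein of granulocytes, lay at 1.31, 0.389 and 0.311 CPM in sham, at 10.6, 6.90 and 3.64 CPM with tMCAO, and at 14.4, 5.52 and 12.8 CPM with celastrol (4.01 ± 0.69 against sham, SE). The interleukin 1 decoy receptor Il1r2 lay at 4.30, 2.37 and 3.98 CPM with celastrol against 0.152 to 0.432 CPM in sham (3.55 ± 0.57), and the collagenase Mmp8 at 2.52, 0.883 and 3.61 CPM against at most 0.0558 CPM (6.71 ± 1.41).

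Secondary granule genes of neutrophils were picked out after their values were seen, and 1 of them, Ngp, set the celastrol libraries apart from both other groups. Ngp, a granule protein gene, lay at 0.335, 0 and 0.190 CPM in sham, at 0.109, 0.581 and 0 CPM with tMCAO, and at 6.08, 1.78 and 5.49 CPM with celastrol. Every celastrol library, replicate 2 included, lay above all 6 others. The log2 fold change was 4.63 ± 1.36 (SE) against sham (edgeR adjusted p 0.366) and 4.25 ± 1.32 against tMCAO (unadjusted p 0.0109, adjusted 0.976, edgeR). Lactoferrin (Ltf) and cathelicidin (Camp) did not reach the FPKM minimum and are given as counts summed over each group, not by library. Ltf had 16 counts in the sham libraries, 39 with tMCAO and 387 with celastrol, while Camp had 2, 0 and 20. The other untested members did not share that pattern: in sham, tMCAO and celastrol, the chemokine receptor Cxcr2 had 0, 337 and 115 counts, the receptor Trem1 4, 177 and 209, the histamine-forming enzyme Hdc 224, 490 and 428, and myeloperoxidase (Mpo) 30, 21 and 9. Ly6g, which defines neutrophils, had 0, 0 and 5 counts, and the list member Elane had 0 in all groups. Csf3r, the receptor for granulocyte colony-stimulating factor, overlapped between groups (0.05 ± 0.41). Of 10 lymphocyte genes 2 were tested, and defining ones were near 0, with 10, 37 and 20 counts of Cd3e in sham, tMCAO and celastrol and 0 of Gzmb.

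Cytokine and chemokine genes lay above sham in celastrol replicates 1 and 3 and much less in replicate 2. Of 29 genes 22 were tested, 11 of them under the FPKM minimum in all sham libraries, and the celastrol libraries lay above sham without overlap in 10 and below in 2. The median log2 fold change was 2.90 (4.06 for tMCAO), with medians of 3.799, 0.48 and 2.52 in celastrol replicates 1, 2 and 3. It was 3.38 without replicate 2 and 1.79 without replicate 1, and DESeq2 called 10 genes higher. The chemokine Ccl4 had 0 counts in sham and lay at 2.04, 0.442 and 1.69 CPM with celastrol, at least 90.1-fold higher if the 3 sham libraries together are given 3 counts. With that floor, celastrol was at least 85.1-fold higher for Ccl7, a monocyte chemokine, and at least 137-fold higher for Il1rn, which blocks the interleukin 1 receptor. Replicate 2 had 0.205 CPM of Ccl7 and 0.189 CPM of Il1rn. Ccl3 lay at 4.52, 0.552 and 1.69 CPM with celastrol against 0 to 0.126 CPM in sham and 10.3, 2.42 and 8.62 CPM with tMCAO.

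Not every cytokine gene followed replicate 2 downward. The granulocyte colony-stimulating factor gene Csf3, named after its values were seen, had 0 counts in sham and lay at 11.3, 3.99 and 3.68 CPM with celastrol and at 9.29, 0.996 and 0.0619 CPM with tMCAO. It was at least 399.8-fold higher than sham by the floor of 3 counts, and all 3 celastrol libraries lay above 2 of the 3 tMCAO libraries. Of cytokines that did not reach the FPKM minimum, Il6 had 0 counts in sham, 370 with tMCAO and 311 with celastrol, Tnf 4, 221 and 49, and Il1b 56, 473 and 112. Downstream of these ligands, 13 of 19 tested genes of cytokine signalling and feedback lay above sham without overlap (median 0.96, or 1.23 without celastrol replicate 2). Bcl3 had a log2 fold change of 3.71 ± 0.72 (SE), the interleukin 4 receptor Il4ra 2.29 ± 0.37, and the oncostatin M receptor Osmr 2.43 ± 0.46.

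Reactive astrocyte genes lay above sham in each celastrol library, least in replicate 2. Of 23 genes 22 were tested, 8 of them under the FPKM minimum in all sham libraries. In 16 the groups did not overlap, all 22 fold changes were positive, the median was 2.62 (3.30 for tMCAO), and DESeq2 called 16 higher. Gfap, the intermediate filament that defines astrocytes, lay at 253, 128 and 110 CPM in sham, at 1380, 800 and 1495 CPM with tMCAO, and at 1176, 378 and 974 CPM with celastrol. The lowest celastrol library, replicate 2, lay just above the highest sham library, and the log2 fold change was 2.36 ± 0.48 (SE; edgeR adjusted p 0.184). Serpina3n, a secreted protease inhibitor, lay at 414, 92.0 and 364 CPM with celastrol against 13.1 to 28.5 CPM in sham (3.85 ± 0.62), and ceruloplasmin (Cp), a copper-carrying ferroxidase, at 51.4, 41.1 and 45.3 CPM against 12.1 to 19.7 CPM (1.51 ± 0.25). The medians of the list were 3.19, 1.29 and 2.69 in replicates 1, 2 and 3.

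Activated microglia and macrophage genes lay higher and homeostatic microglia genes were divided. Of 22 activation genes 18 were tested, 8 of them under the FPKM minimum in all sham libraries, and 14 lay above sham without overlap (median 1.92, or 2.34 without celastrol replicate 2). The scavenger receptor Msr1 lay at 25.1, 2.24 and 12.98 CPM with celastrol against 0 to 0.209 CPM in sham (7.08 ± 1.20, SE). Of 14 homeostatic genes 4 lay below sham without overlap and 1 above, with a median of −0.30 (−0.59 without replicate 2). Beside P2ry12 the lower ones were the orphan receptor Gpr34, at 2.76, 2.44 and 1.75 CPM against 7.24, 10.6 and 7.73 CPM in sham (−1.88 ± 0.60), the transcription factor Sall1 (−0.33 ± 0.13) and Tmem119, a membrane protein of microglia, at 13.2, 18.0 and 15.3 CPM against 19.8, 20.9 and 21.1 CPM. Of 15 monocyte and infiltrating macrophage markers 10 were tested, 3 of them under the FPKM minimum in all sham libraries, and 8 lay above sham without overlap (median 0.97). Chil3, a chitinase-like secreted protein, lay at 6.69, 1.97 and 3.20 CPM with celastrol against 0 to 0.209 CPM in sham (5.33 ± 0.99), and the monocyte chemokine receptor Ccr2, below the FPKM minimum, had 27 counts in sham, 468 with tMCAO and 108 with celastrol.

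Complement genes lay above sham to a similar extent in all 3 celastrol libraries. All 16 were tested, 3 of them under the FPKM minimum in all sham libraries. Of the 16, 13 lay above sham without overlap (median 1.20, or 1.29 without replicate 2), with medians of 1.39, 1.03 and 0.99 in replicates 1, 2 and 3. DESeq2 called 12 higher. C1qb, a chain of the first complement component made by microglia, lay at 34.7, 37.0 and 32.2 CPM in sham and at 73.8, 66.3 and 69.6 CPM with celastrol (1.01 ± 0.21, SE; edgeR adjusted p 0.184). C4b, the fourth component, lay at 23.8, 14.5 and 15.9 CPM in sham and at 97.6, 41.2 and 100 CPM with celastrol (2.14 ± 0.38). The beta 2 integrin Itgb2, the partner chain of the complement receptor on leukocytes, lay at 16.4, 12.7 and 13.2 CPM against 4.72 to 6.90 CPM in sham (1.22 ± 0.23).

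**Figure D3:**
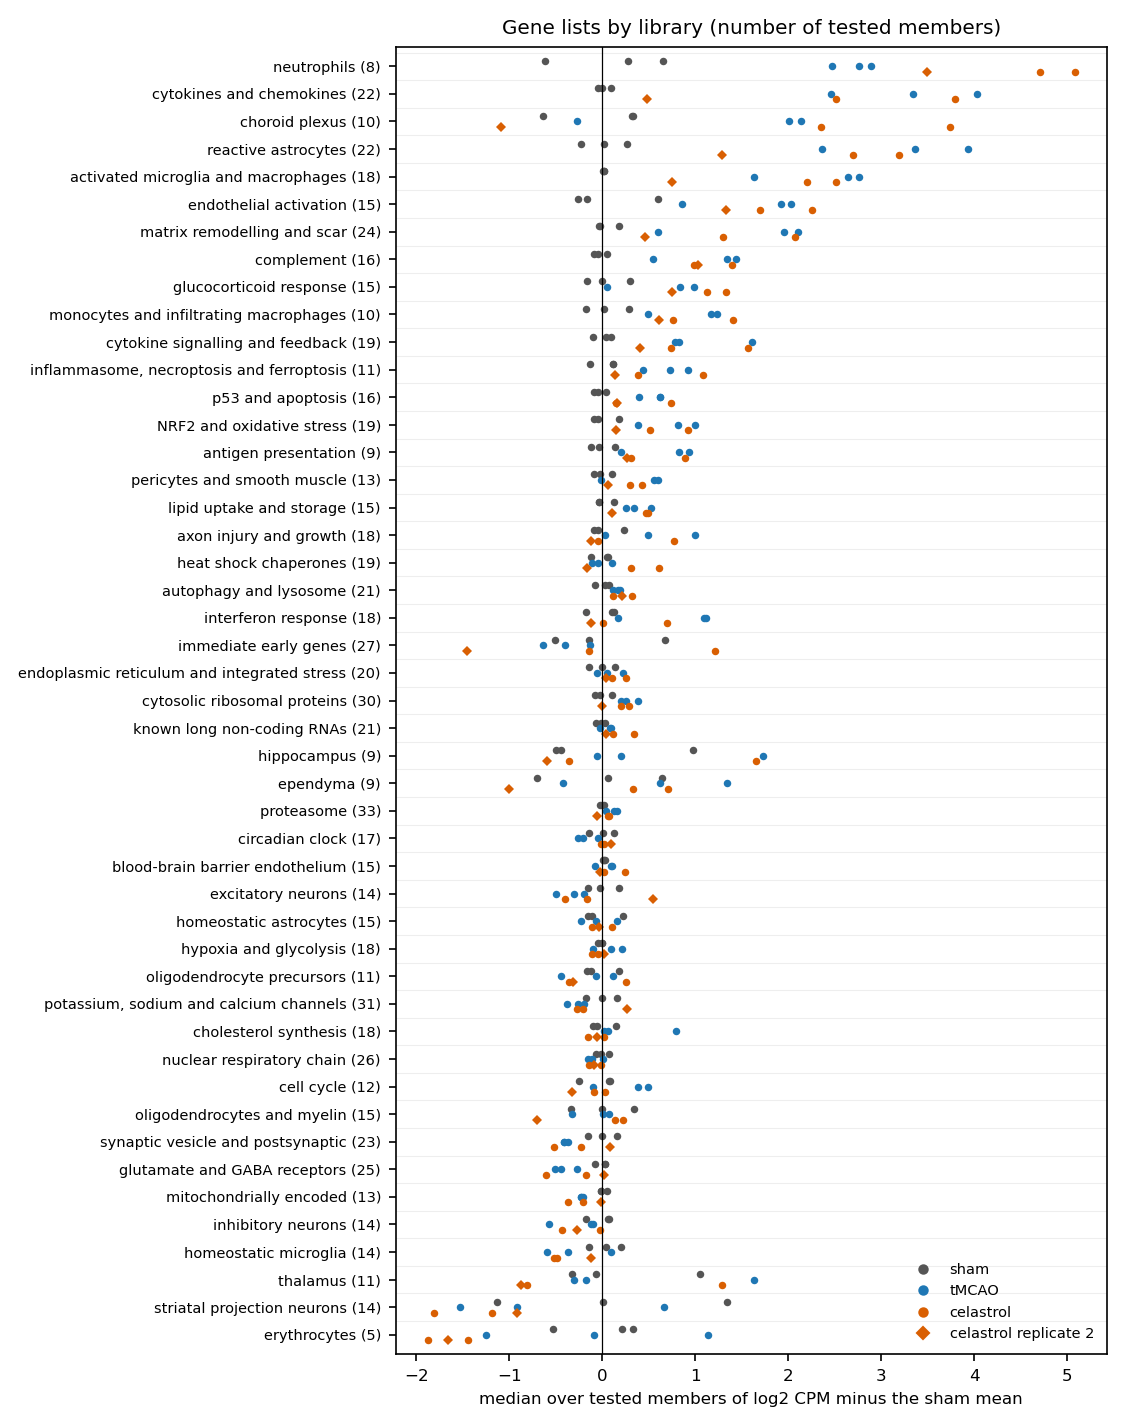
Median over the tested members of each gene list of log2 CPM minus the sham mean (horizontal), by list (vertical, number of tested members in brackets), each point 1 library of sham (grey), tMCAO (blue) or celastrol (orange, replicate 2 as a diamond). The neutrophil list reaches 5.08, 3.50 and 4.71 in the celastrol libraries, the erythrocyte list −1.44, −1.66 and −1.88, and replicate 2 lies nearest to sham in most inflammatory lists.

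Genes known as targets of the glucocorticoid receptor, which mediates the response to stress hormones, lay above sham in the celastrol libraries. All 15 were tested, and in 14 the celastrol libraries lay above sham without overlap, against 4 for tMCAO, in which replicate 3 was near sham. The medians were 0.83, 0.99 and 0.05 in tMCAO replicates 1, 2 and 3 and 1.13, 0.75 and 1.33 in celastrol replicates 1, 2 and 3, so celastrol replicate 2 was below tMCAO replicates 1 and 2, and the difference between 14 and 4 was not tested. The median log2 fold change was 1.18 with celastrol (1.304 without replicate 2) and 0.71 with tMCAO, and DESeq2 called 7 higher with celastrol. Celastrol lay above tMCAO without overlap in 4 of the 15 (3.73% of all genes tested), and 0 passed edgeR's adjusted threshold for that contrast. Several members, among them Cdkn1a and Mt2, also answer other stresses.

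Sult1a1, a sulfotransferase, lay at 21.4, 12.5 and 8.96 CPM in sham, at 21.6, 23.5 and 16.9 CPM with tMCAO, and at 29.0, 48.8 and 42.4 CPM with celastrol (1.49 ± 0.32 against sham, SE; edgeR adjusted p 0.22). The celastrol libraries lay above all 6 others, with replicate 2 the highest. Pdk4, which restrains pyruvate oxidation, lay at 29.5, 21.9 and 22.9 CPM with celastrol against 7.87 to 12.6 CPM in sham (1.22 ± 0.24). The cell cycle inhibitor Cdkn1a lay at 148, 53.7 and 128 CPM against 20.2 to 30.0 CPM (2.22 ± 0.42), and the kinase gene Map3k6 at 45.5, 17.5 and 29.3 CPM against 2.97 to 9.17 CPM (2.47 ± 0.56). Named after their values were seen, Zbtb16, a zinc finger repressor, lay at 80.7, 81.1 and 92.6 CPM with celastrol against 31.0 to 45.4 CPM in sham and 26.0 to 65.6 CPM with tMCAO, and Tsc22d3, the glucocorticoid-induced leucine zipper, at 91.2, 87.5 and 84.1 CPM against 47.7 to 83.7 CPM and 57.0 to 61.5 CPM. Fkbp5, a co-chaperone of the receptor chosen in the same way, lay at 152, 132 and 170 CPM with celastrol, 30.0 to 73.6 CPM in sham and 69.4 to 164 CPM with tMCAO.

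Erythrocyte genes lay below both other groups in the celastrol libraries. Of 8 genes 5 were tested, and in all 5 the celastrol libraries lay below sham without overlap (median −1.69, or −1.72 without replicate 2, and 0.21 for tMCAO). In 4 of the 5 they also lay below tMCAO without overlap (4.13% of all genes tested), and DESeq2 called 4 lower against sham. Hbb-bs, an adult beta globin gene, lay at 111, 119 and 63.6 CPM in sham, at 92.9, 39.6 and 196 CPM with tMCAO, and at 34.7, 31.6 and 24.7 CPM with celastrol. The celastrol libraries lay within a narrow range below the other 6. Its log2 fold change was −1.69 ± 0.50 (SE) against sham (edgeR adjusted p 0.375) and −1.85 ± 0.50 against tMCAO (unadjusted p 0.00532, adjusted 0.976, edgeR). Hbb-bt (−1.87 ± 0.54), Hba-a1 (−1.71 ± 0.52) and Hba-a2 (−1.66 ± 0.51) are near-identical copies in pairs, so these counts are not independent of each other. The part of blood left in the tissue in this difference was not tested.

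**Figure D4:**
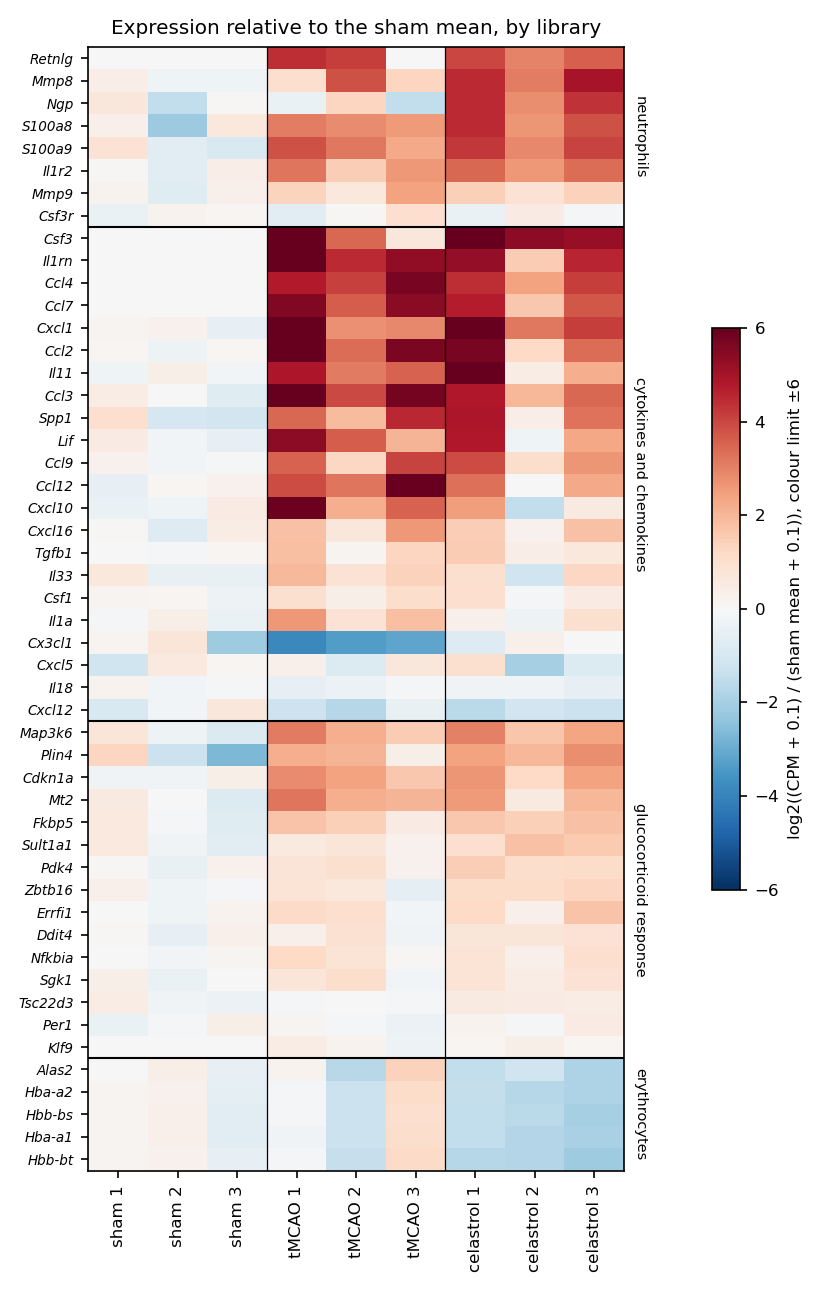
Log2 ratio of each library to the sham mean, with 0.1 CPM added to both (colour, capped at 6 in either direction), for the tested neutrophil, cytokine and chemokine, glucocorticoid response and erythrocyte genes (rows) in the 9 libraries (columns). Neutrophil genes apart from Csf3r and glucocorticoid genes apart from Per1 are red in all 3 celastrol columns, erythrocyte genes are blue in all 3, and most cytokine genes that are red in replicates 1 and 3 are paler in replicate 2.

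Endothelial activation genes lay above sham with celastrol, while genes of the blood-brain barrier went both ways. Of 15 activation genes, 4 of them under the FPKM minimum in all sham libraries, 11 lay above sham without overlap (median 1.77, or 1.96 without replicate 2). The leukocyte adhesion molecule Icam1 lay at 14.8, 7.65 and 9.60 CPM against 1.42 to 2.07 CPM in sham (2.56 ± 0.43, SE), and P-selectin (Selp), which slows rolling leukocytes, at 9.06, 1.81 and 3.10 CPM against 0.0676 to 0.307 CPM (4.73 ± 0.82). Of 15 barrier genes 4 lay above and 4 below sham without overlap. The membrane protein Itm2a lay at 14.3, 21.9 and 19.1 CPM against 41.7 to 59.3 CPM in sham (−1.47 ± 0.36) and the thyroid hormone transporter Slco1c1 at 28.1, 37.9 and 29.7 CPM against 44.5 to 72.7 CPM (−0.92 ± 0.29). The junction protein Pecam1 lay at 75.8, 32.7 and 44.4 CPM against 22.6 to 25.5 CPM (1.08 ± 0.30) and Ly6c1 at 48.7, 46.6 and 49.8 CPM against 25.2 to 41.4 CPM (0.63 ± 0.18).

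Genes of matrix remodelling lay higher, least in replicate 2. Of 24 tested genes 9 were under the FPKM minimum in all sham libraries, and 11 lay above sham without overlap (median 1.499, or 1.84 without replicate 2). Without replicate 2, 23 of 24 lay above sham without overlap, where 16.8% of all genes did so. The proteases Adamts9 and Adamts1 lay at 75.9, 12.7 and 48.4 CPM and at 122, 26.6 and 90.6 CPM, against at most 5.68 and 15.7 CPM in sham (3.33 ± 0.64 and 2.59 ± 0.56, SE). Timp1, an inhibitor of matrix metalloproteinases, lay at 37.8, 2.93 and 6.73 CPM against 0.363 to 0.768 CPM (4.77 ± 1.07), and lysyl oxidase (Lox), which cross-links collagen, at 29.6, 3.75 and 4.52 CPM against 0.519 to 0.893 CPM (4.28 ± 1.04). Timp1 lies in an intron of Syn1, on the other strand.

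Oxidative stress genes lay moderately higher, and heat shock and proteasome genes mostly overlapped between groups. Of 19 targets of the transcription factor NRF2 and other oxidative stress genes, 11 lay above sham without overlap (median 0.53, 18 of 19 above sham without replicate 2). Heme oxygenase Hmox1 lay at 164, 14.7 and 45.2 CPM against 4.70 to 5.64 CPM in sham (3.88 ± 0.91, SE), and the sulfiredoxin Srxn1 at 345, 156 and 195 CPM against 68.4 to 123 CPM (1.33 ± 0.31). Of 19 heat shock chaperone genes 2 lay above sham without overlap (median 0.28, with 13 of 19 without replicate 2). Hspa1b, an inducible 70 kDa chaperone, lay at 285, 23.9 and 114 CPM with celastrol, at 7.54, 10.5 and 18.4 CPM in sham and at 71.8, 34.1 and 108 CPM with tMCAO (3.54 ± 0.84 against sham). Its near-identical copy Hspa1a lay at 271, 15.3 and 98.3 CPM and overlapped sham in replicate 2, and how counts were split between the copies is uncertain. Of 33 proteasome genes 2 lay above sham without overlap and 1 below, near the share over all genes. Without replicate 2 it was 13 above and 2 below, where 16.8% and 14.8% of all genes did so. With tMCAO 13 lay above sham and 1 below, beside 12.4% and 11.1% of all genes.

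Synaptic and receptor genes lay slightly below sham in celastrol replicates 1 and 3 (medians −0.52 and −0.23, and −0.60 and −0.18). In replicate 2 they lay near sham (0.08 and 0.02). Excitatory neuron markers were split in the same way, with medians of −0.16, 0.55 and −0.40 in replicates 1, 2 and 3, but sham replicate 1 also lay at −0.16. Markers of inhibitory neurons (−0.43, −0.27 and −0.03) and of striatal projection neurons (−1.81, −0.92 and −1.19) were not split so. Of 23 synaptic genes 3 lay below sham without overlap (median −0.18, against −0.40 and 15 of 23 for tMCAO), and without replicate 2 it was 15 of 23, where 14.8% of all genes did so. Of 25 glutamate and GABA receptor genes 4 lay below (median −0.20, or −0.40 without replicate 2). Grm3, a metabotropic glutamate receptor, lay at 36.0, 47.1 and 29.3 CPM against 48.9 to 69.7 CPM in sham (−0.68 ± 0.23, SE), and the scaffold protein Homer2 at 49.9, 77.4 and 72.1 CPM against 79.8 to 106 CPM (−0.48 ± 0.23). Genes of striatal projection neurons were all below the sham mean (14 of 14, median −1.69), but sham replicate 3 was high: Rgs9 lay at 15.8, 49.3 and 124 CPM in sham and at 14.2, 16.9 and 17.2 CPM with celastrol, and without sham replicate 3 the list median was −0.73.

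Celastrol replicate 2 was most often the celastrol library nearest to sham among the higher genes, but not among the lower genes. Among the 1340 genes above sham without overlap, replicate 2 was the lowest celastrol library in 736 (54.9%), replicate 3 in 421 and replicate 1 in 183. Among the 941 genes below sham without overlap, replicate 2 was the highest celastrol library in 380 (40.4%), replicate 3 in 386 (41%) and replicate 1 in 175. Without replicate 2, edgeR called 44 genes higher and 2 lower, and the groups did not overlap in 2852 genes higher and 2514 lower. The 44 include Serpina3n, C4b, Gfap, Atf3, Msr1 and Osmr beside Fcgr4, Ms4a6c and Lcn2, and the 2 lower ones are Arrb1 and P2ry12. Markers of the choroid plexus, the tissue that secretes cerebrospinal fluid, moved with the same split. Of 12 such markers 10 were tested, 5 of them under the FPKM minimum in all sham libraries. The median over the tested markers was 3.74, −1.09 and 2.35 in celastrol replicates 1, 2 and 3, −0.63 to 0.33 in sham and −0.27 to 2.14 in tMCAO. Transthyretin (Ttr) lay at 1662, 3.53 and 399 CPM with celastrol and at 22.1, 2.79 and 31.1 CPM in sham. The part of dissection in the difference between the celastrol libraries was not tested.

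Against untreated tMCAO, celastrol differed in 0 genes in either direction by edgeR's adjusted p, with 382 higher (2.25%) and 316 lower (1.86%) at an unadjusted p under 0.05, and DESeq2 called 11 higher and 7 lower. Both comparisons with sham share the sham libraries. A p above the threshold does not show that the occluded groups were alike.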

How the data were processed

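RNA depleted of ribosomal RNA was sequenced from the ischemic hemisphere in 9 libraries, 3 each of sham, tMCAO and celastrol-treated tMCAO. The tools named in the submitters' processing notes are HISAT2 2.0.4 and StringTie 1.3.4d, with cutadapt 1.9, DESeq2 and edgeR, and the build is mm10. The sources used here give no strand setting. The authors deposited 1 table of 55385 genes with estimated counts (whole numbers) and FPKM per library, in which FPKM of 0 is written as a small constant.

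Here edgeR 4.0.16 (R 4.3.3; TMM scaling, quasi-likelihood F test) was fitted to the deposited estimated counts of all 9 libraries with 1 mean per group. P-values were adjusted by the Benjamini-Hochberg method over the 16982 genes with FPKM of at least 0.5 in at least 3 libraries. Standard errors come from the F statistic, and CPM are TMM-scaled. DESeq2 1.42.0 and limma 3.58.1 served as alternatives. With 3 libraries against 3 a permutation test cannot go below a two-sided p of 0.1. The code was tested on simulated counts. No 2 libraries agreed within sampling noise.

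Named genes are the 15 of smallest p in each direction whose celastrol and sham libraries do not overlap, the 4 leading long non-coding RNAs in each direction, up to 4 members of smallest p in each of 48 gene lists, and defining cell markers. Pseudogenes and gene models with only a Gm, Rik or clone name were left out when the 15 were picked. Other genes are said to be chosen after their values were seen. The members and lists were chosen with earlier results of these data known.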

Additional observations from a re-analysis of the deposited data

How the results depend on the processing

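The number of genes passing the threshold depended on the test and on single libraries. Against 1 higher and 0 lower in the edgeR fit reported, DESeq2 called 314 and 66, edgeR's newer quasi-likelihood form 6 and 0, a fit of the celastrol and sham libraries alone 3 and 1, and voom with sample quality weights (added after seeing the data) 7 and 1. With no filter on low values 3 were higher, with FPKM of at least 1 in 3 libraries 2, and with limma on log2(FPKM + 0.1) 3, with 0 lower in each. The causes were not tested. Leaving out 1 library at a time gave 0 to 44 higher and 0 to 2 lower genes, with the most without celastrol replicate 2. The count was 3 and 0 without sham replicate 1, 2 and 1 without tMCAO replicate 1, and 6 and 1 without tMCAO replicate 3. It was 0 and 0 without sham replicate 2 or 3, tMCAO replicate 2, or celastrol replicate 1 or 3. Genes without overlap numbered 1747 to 2852 higher and 1464 to 2514 lower, since 2 libraries against 3 separate more easily.

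With the replicate number as a block, 21 genes were called higher and 1 lower. Same-numbered sham and celastrol libraries correlated at 0.00805, 0.173 and 0.0112 in their deviations from the group means. Differently numbered libraries of these groups correlated at −0.212 to 0.176, and tMCAO replicate 1 with celastrol replicate 1 at 0.198. So few libraries cannot decide whether the numbers pair the samples. Celastrol against tMCAO gave 11 higher and 7 lower genes with DESeq2 and 0 with edgeR, also without celastrol replicate 2. Among genes named in the report the log2 fold change of Csf3r changed sign, with −0.11 without sham replicate 1, −0.24 without celastrol replicate 2, −0.0967 with voom weights, and a range of −0.2417 to 0.2237 with 1 library left out. The log2 fold change of Cx3cl1 against sham, −0.09 in the fit reported, was 0.3109, 0.3149 and 0.306 with limma on log2(FPKM + 0.5), (FPKM + 0.1) and (FPKM + 1), 0.2088 with voom weights, and −0.562 to 0.4645 with 1 library left out. No other gene named here changed sign under the alternatives run.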

Other observations

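A few further genes and gene groups are given as values. The neuronal chemokine gene Cx3cl1, chosen after its values were seen, lay at 648, 933 and 128 CPM in sham, at 38.8, 56.1 and 64.4 CPM with tMCAO, and at 339, 708 and 560 CPM with celastrol. The celastrol libraries lay within the range of sham and above every tMCAO library, with a log2 difference from tMCAO of 3.33 ± 0.64 (SE; edgeR unadjusted p 0.000595, adjusted 0.976), and sham replicate 3 was far below the other sham libraries. Immediate early genes, which neurons switch on with activity, had a median log2 fold change of 0.25 against sham over 27 genes. Their medians were −0.14, −1.45 and 1.22 in celastrol replicates 1, 2 and 3, so the libraries of the group lay on both sides of sham. Of 21 genes of autophagy and lysosomes, 10 lay above sham without overlap and 1 below (median 0.27), beside 7.89% and 5.54% of all genes. Of 18 tested interferon response genes, 3 lay above sham without overlap (median 0.26, and 0.85 with 8 genes for tMCAO). The interferon medians were 0.70, −0.12 and 0.0086 in celastrol replicates 1, 2 and 3. Without celastrol replicate 1 the median log2 fold change of the list was −0.014.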
